A study of Mus musculus with 48 samples.

Results

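The genes described here are targets of the transcription factor NRF2 together with the enzymes that remove oxidants, 39 genes listed by symbol. A gene was taken as measured where the array carried a probe set annotated with that gene's symbol alone, and where several probe sets qualified, the one with the highest mean over all arrays stood for the gene. In this way 34 of the 39 members were measured, among 12393 genes in all, 17 of them by 1 probe set and 17 by several. G6pdx, Prdx1, Prdx5, Prdx6 and Ggt1 were not measured by such a probe set and are not analysed here.

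RNA was measured in lungs of 48 male C57BL/6 mice, 1 Affymetrix array per animal, in 6 groups of 8 that the title of the study places in the question of whether obesity alters oxidative and inflammatory responses to cigarette smoke. Diet-induced obese (DIO) mice had been fed 60 kcal% fat for 9 weeks, starting at an age of 6 weeks, and regular weight (RW) mice a diet with about 5 kcal% fat. At 15 weeks of age, animals of either diet began breathing mainstream smoke (MS), sidestream smoke (SS) or, as sham controls (SC), filtered air. Exposure was through the nose only, 5 h a day, with 8 exposures in 2 weeks (5 days, a pause of 2 days, then 3 days), and lungs were taken 1 day after the last. The groups are named DIO-MS, DIO-SS, DIO-SC, RW-MS, RW-SS and RW-SC, and a last number names the animal. The animal description also refers to a 4-day LPS study, and whether any animal had another treatment is not known. In the RW-MS and RW-SS groups, the source labels of animals 7 and 8 carry the numbers 5 and 6 again; they were counted as animals of their own.

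NRF2, encoded by Nfe2l2, is held in the cytoplasm and marked for degradation by KEAP1. Electrophiles and oxidants, both abundant in tobacco smoke, modify cysteines of KEAP1, after which NRF2 accumulates, pairs with a small MAF protein in the nucleus and binds antioxidant response elements near its target genes. The targets supply glutathione, thioredoxin and NADPH, break down haem and detoxify quinones and epoxides, and in the lung they are expressed by epithelial cells and by macrophages. NRF2 is controlled largely at the protein level, which an array of RNA does not measure.

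Promoter letters of the members came from RefSeq (build GRCm38.p6, 250 bases before to 50 after the start of the gene), which had an entry for 29 of the 34 measured members; Abcc1, Gclc, Gsr, Hmox1 and Sod3 had none. A general form of the antioxidant response element, TGACNNNGC, was searched on both strands and was found in 8 of the 29 members (27.6%), against 14% of 27025 mouse genes counted in the same way (12.4% of 32851 promoters of the same length). These were Gclm, Mafg, Me1, Nfe2l2, Pgd, Sod1, Srxn1 and Txnrd1, and in Pgd and Srxn1 the match lay after the start. A second form, TGANTCAGC, to which NRF2 binds with small MAF proteins, was found in Me1, Osgin1 and Srxn1 (10.3% of the 29), against 1.37% of all genes (1.19% of all promoters); the match in Me1 counts for both forms. The 3 promoters with the second form and that of Nfe2l2, the gene of the factor itself, are shown because they carry the letters to which the factor binds. Capitals mark the match, and in Osgin1 it reads on the opposite strand.
Srxn1 (chr2:152105459-152105507, plus strand): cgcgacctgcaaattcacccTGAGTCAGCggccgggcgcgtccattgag
Me1 (chr9:86695892-86695940, minus strand): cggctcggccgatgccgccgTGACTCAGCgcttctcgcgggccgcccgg
Osgin1 (chr8:119437028-119437076, plus strand): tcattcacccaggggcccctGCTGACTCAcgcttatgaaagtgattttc
Nfe2l2 (chr2:75704875-75704913, minus strand): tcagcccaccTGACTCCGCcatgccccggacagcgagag
A match describes the letters of this window and says nothing of binding in these lungs. Of the 8 members with the first form, 1 (Pgd) passed the test described next in any comparison over all arrays. Of the 21 with an entry and no match, 16 did. Without 5 arrays that stood apart (described next), Txnrd1, Nfe2l2 and Mafg, which carry the first form, also passed in a comparison. Of the members with no entry, Gclc and Hmox1 passed, and Abcc1, Gsr and Sod3 did not. The share of all genes that passed in any comparison was not counted, so nothing is read from these counts.

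Values are log2 signals, so a difference of 1 is a change of 2-fold. Each gene was fitted with limma over all 48 arrays, and a gene is called where its p, adjusted over all 12393 genes (Benjamini-Hochberg), is below 0.05; errors of differences are standard errors. The labelled tissue was borne out by its markers: the surfactant gene Sftpc and the club cell gene Scgb1a1 lay between 14.97 and 15.27 in all arrays. There were 5 arrays that stood apart: their mean correlation with the other arrays was 0.954 to 0.979 against 0.986 to 0.991 for the remaining 43. On marker scores (the mean over a list of log2 deviations from each gene's overall mean), DIO-SC-3 scored 7.05 for skeletal muscle, 8.33 for squamous epithelium and 2.92 for adipocytes. DIO-SC-7 scored 6.03 for thymocytes and 5.31 for adipocytes, and RW-SS-6 scored 5.56 for adipocytes. DIO-MS-1 and DIO-MS-6 had no such foreign score and were the highest of their group for T cell (1.30 and 0.86) and neutrophil markers (0.53 and 0.85). Results that rest on these arrays are given with and without them. Markers of activated macrophages moved with mainstream smoke: all 4 measured of 5 (Mmp12, Gpnmb, Cd68 and Trem2) were called higher in DIO-MS against DIO-SC and in RW-MS against RW-SC, and their scores lay at 1.20 to 2.02 in the mainstream arrays against -1.33 to -0.49 in all others. In whole lung, fewer cells of a type and less RNA per cell cannot be told apart.

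Mainstream smoke moved single members both ways in both diets. Slc7a11 (cystine transport), Gclc (glutathione synthesis), Txn1 (thioredoxin) and Sod2 (mitochondrial superoxide dismutase) rose, while the detoxifying enzymes Ephx1 and Aox1 and the secreted glutathione peroxidase Gpx3 fell. These members do not stand for their roles. Against air, 2 of 5 members of glutathione supply and 1 of 5 of the thioredoxin system were called higher in each diet. Of 6 members of detoxification, export and Osgin1, 5 were called lower in DIO and 2 in RW. The rise of Txn1 rests on 1 of its 2 probe sets. In DIO-MS against DIO-SC, 5 members were called higher and 7 lower, 12 of 34 (35.3%) against 21.4% of all genes called (11.7% higher and 9.76% lower), with a median log2 difference of -0.0043 (all genes -0.018). In RW-MS against RW-SC, 5 were called higher and 4 lower, 9 of 34 (26.5%) against 14.7% of all genes (6.61% higher and 8.07% lower), with a median of 0.048 (all genes -0.025). With each array centred on its median, the split in RW was 6 higher and 3 lower. The members were chosen with earlier results of these data known, so no excess over all genes is read from their shares. Of the members called, 7 were shared by both diets, all in the same direction, which is 58.3% of those in DIO and 77.8% of those in RW: Slc7a11, Gclc, Sod2 and Txn1 higher and Ephx1, Aox1 and Gpx3 lower. This overlap was not counted over all genes, so its shares have no background and are not read as particular to the members. The calls without the 5 arrays were 3 higher and 7 lower in DIO (18% of all genes called) and 7 higher and 9 lower in RW (24.3%). Of the 7 shared calls, Gclc in DIO was lost without them (0.23 ± 0.11, adjusted p = 0.13), and the other 6 were called in both diets.

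Sidestream smoke called few members. In DIO-SS against DIO-SC, Gss was called higher and Osgin1 lower, 2 of 34 (5.88%) against 6.85% of all genes (4.26% higher and 2.59% lower), with a median difference of -0.022 (all genes 0.020); with each array centred on its median, 1 was higher and 2 lower. In RW-SS against RW-SC, limma called 0 of 34 (12 at an unadjusted p below 0.05) against 2.17% of all genes (0.694% higher and 1.48% lower), with a median of 0.0058 (all genes -0.0073). Leaving out the 5 arrays, 4 members were lower in DIO-SS and 3 in RW-SS, and 0 higher (9.23% and 4.69% of all genes called).

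Between the smokes, DIO-MS against DIO-SS had 6 members higher and 5 lower (16.8% of all genes called, 8.83% higher and 8% lower; median -0.0027, all genes -0.038), or 4 and 5 with each array centred on its median. RW-MS against RW-SS had 4 higher and 1 lower (9.77% of all genes called, 6.05% higher and 3.72% lower; median -0.015, all genes -0.023), or 3 and 2 when centred. Leaving out the 5 arrays gave 2 higher and 5 lower in DIO-MS against DIO-SS (12% of all genes called) and 5 and 5 in RW-MS against RW-SS (17.1%). Between the diets, limma called 0 members in DIO-MS against RW-MS (8 at an unadjusted p below 0.05; 1.21% of all genes called, 0.613% higher and 0.597% lower; median -0.068, all genes -0.011). It also called 0 in DIO-SS against RW-SS (9 at an unadjusted p below 0.05; 0.976% of all genes called, 0.654% higher and 0.323% lower; median -0.058, all genes -0.0029). When the 5 arrays were left out, 1 member was lower in each of these, Pgd in DIO-MS and Nqo1 in DIO-SS (1.29% and 2.99% of all genes called). DIO-SC against RW-SC had 2 lower, Sqstm1 and Gpx1 (8.28% of all genes called, 2.29% higher and 5.99% lower; median -0.012, all genes -0.03), or 1 when centred; without the 5 arrays neither was called, and Nfe2l2 and Gpx3 were higher and Tkt lower (9.55%).

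**Figure D1:**
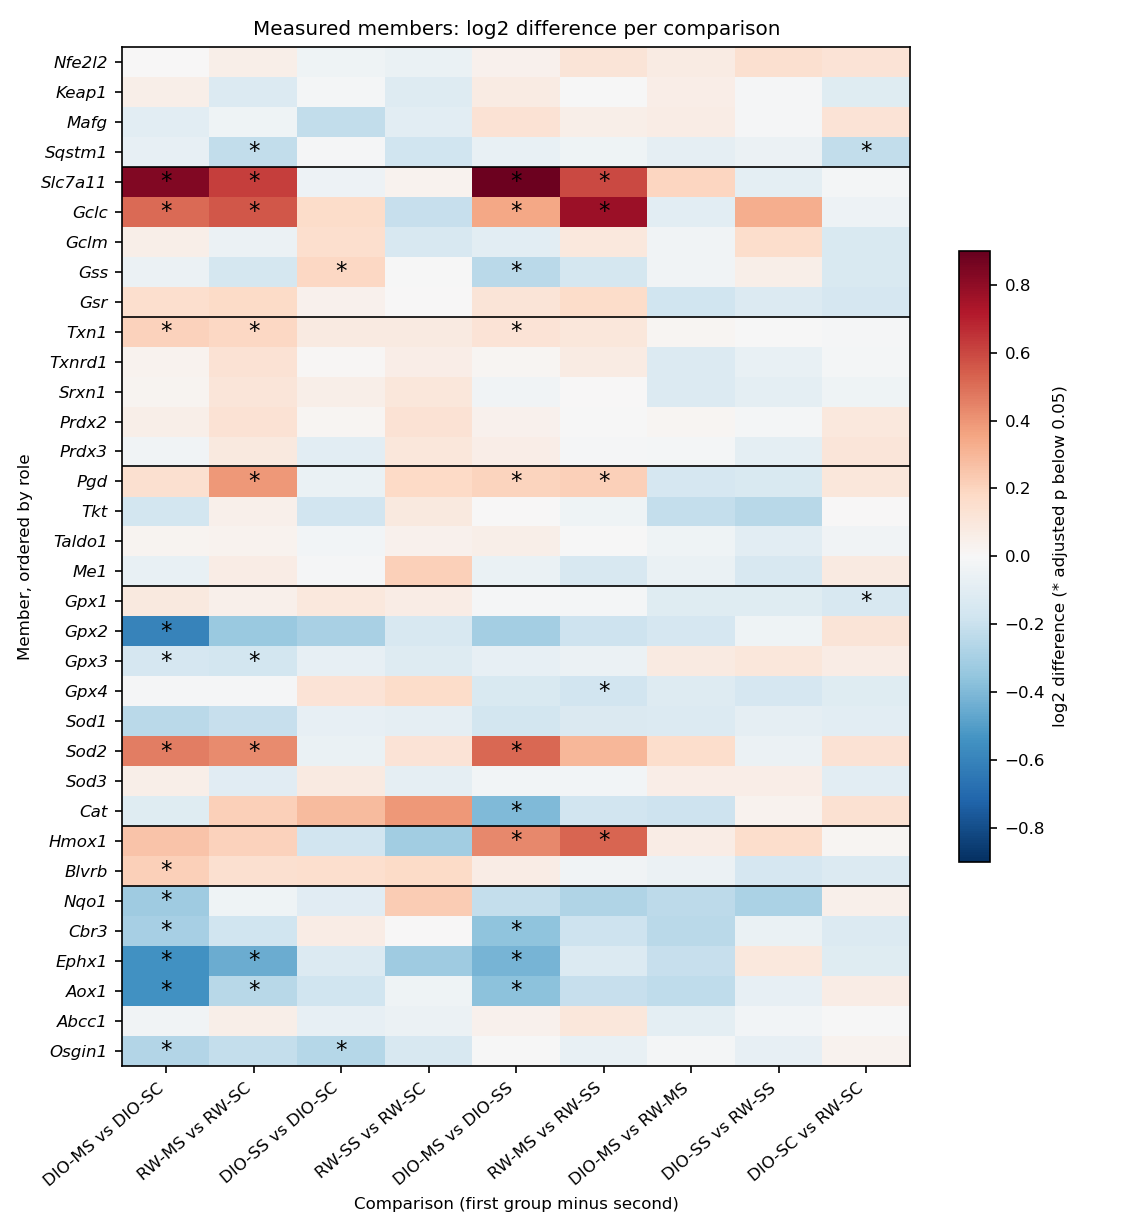
Log2 difference of the 34 measured members (rows, ordered by role, lines between roles) in 9 comparisons (columns, first group minus second). Red is higher and blue lower in the first group, and a star marks an adjusted p below 0.05. The strongest colours lie in the mainstream columns, with Slc7a11 and Gclc red and Ephx1, Aox1 and Gpx2 blue.

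Nfe2l2 and Keap1, the factor and its inhibitor, were not called in any comparison over all arrays. Nfe2l2 signals (lowest, median and highest) were 11.49, 11.55 and 11.62 in DIO-MS and 11.07, 11.62 and 11.71 in DIO-SC. In RW-MS they were 11.30, 11.45 and 11.76, against 11.24, 11.42 and 11.51 in RW-SC. The ranges overlapped in both diets, and the differences were 0.0047 ± 0.062 in DIO (95% interval -0.12 to 0.13) and 0.053 ± 0.062 in RW (-0.072 to 0.18). Between the diets in air, Nfe2l2 differed by 0.12 ± 0.062 (adjusted p = 0.23), and by 0.19 ± 0.051 (adjusted p = 0.013) without the 5 arrays, among them DIO-SC-7 with the lowest Nfe2l2 of all arrays. Keap1 signals were 9.35, 9.50 and 9.88 in DIO-MS and 9.33, 9.50 and 9.64 in DIO-SC, and the groups overlapped. In RW-MS they were 9.45, 9.48 and 9.52, the narrowest range of the 6 groups for Keap1, against 9.46, 9.56 and 9.79 in RW-SC. The Keap1 difference in RW was -0.12 ± 0.053 (adjusted p = 0.12, and 0.034 without the 5 arrays, though RW-MS and RW-SC hold none of them). These Keap1 values are of the probe set 1450746_at (mean signal 9.512). A dimmer Keap1 probe set, 1450747_at (8.425), differed from air by -0.27 in RW-MS and by -0.040 in DIO-MS.

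Sqstm1 encodes p62, an autophagy receptor that binds KEAP1. Its signals were 12.35, 12.45 and 12.56 in RW-MS against 12.57, 12.65 and 12.79 in RW-SC, so all 8 RW-MS arrays lay below all RW-SC arrays. Sqstm1 fell in RW-MS by 0.22 ± 0.056 (adjusted p = 0.0050). In RW-SS against RW-SC the difference was -0.18 ± 0.056 (adjusted p = 0.067), and it was called when the 5 arrays were left out (-0.16 ± 0.043, adjusted p = 0.021). Sqstm1 was also lower in DIO-SC, at 12.13, 12.52 and 12.67, by 0.22 ± 0.056 against RW-SC (adjusted p = 0.0074), a call lost without DIO-SC-3 and DIO-SC-7 and the other arrays apart (-0.13 ± 0.045, adjusted p = 0.061). Under mainstream smoke in DIO the difference from air was -0.075 ± 0.056 (adjusted p = 0.37), and -0.15 ± 0.048 without the 5 arrays (adjusted p = 0.023). Mafg, a small MAF partner of NRF2, differed by -0.22 ± 0.074 in DIO-SS against DIO-SC (adjusted p = 0.059, and 0.032 without the 5 arrays).

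Slc7a11 and Gclc, which both serve glutathione supply, were called higher with mainstream smoke. Slc7a11 (probe set 1420413_at) encodes the subunit of the cystine transporter that carries the substrate, and cystine provides the cysteine of glutathione. Its signals were 4.73, 4.98 and 6.35 in DIO-MS, 4.06, 4.45 and 4.65 in DIO-SS and 4.21, 4.44 and 4.74 in DIO-SC. In RW they were 4.64, 5.07 and 5.60 in RW-MS, 4.16, 4.52 and 4.88 in RW-SS and 4.05, 4.48 and 4.83 in RW-SC. This probe set was dim: its mean lay at percentile 10.1 of all genes, and its signal in air was near that of genes of other tissues, such as Tnnc2 of skeletal muscle and Krtdap of squamous epithelium (medians over all arrays 4.50 and 4.33). The sizes of its differences are therefore given as measured log2 differences, with no fold, and are not ranked against those of brighter genes. All 8 DIO-MS arrays lay above all DIO-SS arrays and 7 above all DIO-SC arrays, while the RW groups overlapped in 3 RW-MS arrays. Slc7a11 rose by 0.83 ± 0.17 in DIO-MS against DIO-SC (adjusted p = 2.7e-04) and by 0.62 ± 0.17 in RW-MS against RW-SC (adjusted p = 0.010). Against sidestream smoke it was higher by 0.88 ± 0.17 in DIO-MS (adjusted p = 1.7e-04) and 0.59 ± 0.17 in RW-MS (adjusted p = 0.019). DIO-MS-1 and DIO-MS-6 had Slc7a11 signals of 6.35 and 6.17, and the rest of DIO-MS lay at 4.73 to 5.42. Leaving out the arrays apart, the rise in DIO-MS against DIO-SC was 0.60 ± 0.15 (adjusted p = 0.0023).

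Gclc (1424296_at) is the catalytic subunit of glutamate-cysteine ligase, the enzyme that limits glutathione synthesis. Its signals were 11.11, 11.33 and 11.78 in DIO-MS, 10.79, 11.07 and 11.26 in DIO-SS and 10.22, 10.97 and 11.32 in DIO-SC. The RW signals were 11.18, 11.50 and 11.91 in RW-MS, 10.10, 10.82 and 11.01 in RW-SS and 10.62, 10.91 and 11.25 in RW-SC. All 8 RW-MS arrays lay above all RW-SS arrays and 7 above all RW-SC arrays, and in DIO 4 of 8 lay above all air arrays. Gclc rose by 0.56 ± 0.13 in RW-MS against RW-SC (1.47-fold, adjusted p = 0.0016) and was higher by 0.77 ± 0.13 than in RW-SS (1.70-fold, adjusted p = 1.7e-05). It rose by 0.51 ± 0.13 in DIO-MS against DIO-SC (adjusted p = 0.0022) and was higher by 0.35 ± 0.13 than in DIO-SS (adjusted p = 0.0497). Both DIO calls were lost without the arrays apart, at 0.23 ± 0.11 (adjusted p = 0.13) against air and 0.25 ± 0.099 (adjusted p = 0.090) against sidestream smoke. The Gclc signals of DIO-SC-3 and DIO-SC-7 were 10.22 and 10.47 (10.86 to 11.32 in the rest of DIO-SC), and those of DIO-MS-1 and DIO-MS-6 (11.78 and 11.61) were the highest of theirs. Another Gclc probe set of similar brightness, 1455959_s_at (mean signal 11.03 against 11.09), gave 0.53 in RW-MS against RW-SS, below the 0.77 of 1424296_at. Over air it gave 0.60 in RW-MS and 0.53 in DIO-MS, and 0.38 in DIO-MS against DIO-SS. In RW-SS against RW-SC, where Gclc was not called, these probe sets differed in sign (-0.21 for 1424296_at and 0.072 for 1455959_s_at).

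The modifier subunit of the same ligase, Gclm, was called in no comparison. Its signals were 9.54, 9.65 and 9.82 in DIO-MS and 9.29, 9.63 and 9.95 in DIO-SC. In RW-MS they were 9.50, 9.70 and 9.89, against 9.58, 9.69 and 10.04 in RW-SC. The groups overlapped, and the 95% intervals of the Gclm difference were -0.11 to 0.21 in DIO and -0.22 to 0.11 in RW. Gss, which joins glycine to complete glutathione, was lower by 0.24 ± 0.057 in DIO-MS against DIO-SS (8 of 8 arrays below, adjusted p = 0.0019, and 0.016 without the 5 arrays) and higher by 0.19 ± 0.057 in DIO-SS against DIO-SC (adjusted p = 0.037, and 0.088 without the 5 arrays). In RW-MS against RW-SC it differed by -0.16 ± 0.057 (adjusted p = 0.052, and 0.0059 without the 5 arrays). Gsr, which regenerates reduced glutathione, was called in no comparison, with differences from air of 0.17 or less in size under either smoke.

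Activated macrophage scores moved with these rises, at 1.33 to 1.89 in DIO-MS and 1.20 to 2.02 in RW-MS against no score above -0.49 in the other groups. Scores for resident alveolar macrophage markers (10 of 12 measured) lay at 0.066 to 0.67 in RW-MS against -0.27 to -0.042 in RW-SC, and at -0.15 to 0.23 in DIO-MS against -0.28 to 0.057 in DIO-SC. The resident markers did not move together. In RW-MS 4 were called higher and 2 lower than in air, with differences over the list of -0.92 to 2.99. In DIO-MS 4 were called higher and 3 lower, with differences of -1.91 to 3.19. The part of these macrophage markers in the member differences was not tested.

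In the thioredoxin system, which reduces oxidised proteins, Txn1 (thioredoxin) was the member called. Its signals were 12.97, 13.00 and 13.16 in DIO-MS against 12.73, 12.84 and 12.94 in DIO-SC, with no overlap. In RW-MS they were 12.92, 13.00 and 13.13, against 12.70, 12.87 and 12.93 in RW-SC, with 7 of 8 RW-MS arrays above. Txn1 rose by 0.21 ± 0.043 in DIO (1.16-fold, adjusted p = 2.4e-04; 0.16 ± 0.044 without the 5 arrays, adjusted p = 0.0079) and by 0.18 ± 0.043 in RW (1.14-fold, adjusted p = 0.0022). This rests on the probe set 1416119_at: the dimmer Txn1 probe set 1456734_at differed by -0.0012 in DIO and -0.16 in RW. Among called differences of members measured by several probe sets, only those of Txn1 had a probe set of opposite sign (3 of 24 pairs compared). Txnrd1 (thioredoxin reductase), Srxn1 (sulfiredoxin, which restores overoxidised peroxiredoxins) and the peroxiredoxins Prdx2 and Prdx3 were called in no comparison. Their differences lay between -0.034 and 0.053 in DIO-MS against DIO-SC and between 0.087 and 0.13 in RW-MS against RW-SC, and without the 5 arrays Txnrd1 and Prdx2 were called higher in RW-MS.

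Pgd, phosphogluconate dehydrogenase of the pentose phosphate pathway, makes NADPH. Its signals were 10.48, 10.73 and 10.92 in RW-MS, 10.34, 10.43 and 10.66 in RW-SS and 10.20, 10.30 and 10.46 in RW-SC. All 8 RW-MS arrays lay above all RW-SC arrays, and Pgd rose by 0.39 ± 0.067 (1.31-fold, adjusted p = 2.8e-05). In DIO the signals were 10.37, 10.53 and 10.79 in DIO-MS, 10.26, 10.35 and 10.42 in DIO-SS and 10.19, 10.38 and 10.81 in DIO-SC. The DIO-MS and DIO-SC arrays overlapped, and the difference was 0.14 ± 0.067 (adjusted p = 0.12), while 7 of 8 DIO-MS arrays lay above all DIO-SS arrays and Pgd was higher by 0.20 ± 0.067 in DIO-MS than in DIO-SS (adjusted p = 0.032, and 0.13 without the 5 arrays). Against sidestream smoke in RW it was higher by 0.22 ± 0.067 (adjusted p = 0.029). These Pgd values are of the probe set 1437380_x_at, and the probe sets disagreed in size. In RW-MS against RW-SC the other _x_at sets of Pgd gave 0.39 and 0.45, while 1423706_a_at, of similar brightness (mean signal 10.33 against 10.47), gave 0.13. In RW-MS against RW-SS 1423706_a_at gave 0.054, and with the mean of all Pgd probe sets that call was lost (0.19 ± 0.066, adjusted p = 0.056), while the rise over air remained (0.34 ± 0.066, adjusted p = 2.4e-04). The transketolase Tkt, the transaldolase Taldo1 and malic enzyme Me1 were called in no comparison.

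Hmox1, the inducible haem oxygenase, was called between the 2 smokes in both diets and not between either smoke and air. Its signals were 8.61, 8.82 and 9.69 in DIO-MS, 8.46, 8.54 and 8.68 in DIO-SS and 8.18, 8.70 and 9.15 in DIO-SC. In RW they were 8.68, 8.82 and 9.61 in RW-MS, 8.24, 8.41 and 8.57 in RW-SS and 8.55, 8.72 and 8.95 in RW-SC. All 8 RW-MS arrays lay above all RW-SS arrays, and 7 of 8 RW-SS arrays lay below all RW-SC arrays. Hmox1 was higher by 0.52 ± 0.12 in RW-MS against RW-SS (1.44-fold, adjusted p = 0.0037) and by 0.43 ± 0.12 in DIO-MS against DIO-SS (1.35-fold, adjusted p = 0.012). The DIO call was lost without the 5 arrays (0.22 ± 0.093, adjusted p = 0.14), and DIO-MS-1 and DIO-MS-6 had 9.69 and 9.59 (8.61 to 8.84 in the rest of DIO-MS). Mainstream smoke differed from air by 0.26 ± 0.12 in DIO and 0.21 ± 0.12 in RW (adjusted p = 0.14 and 0.28), and without the 5 arrays the DIO difference was 0.021 ± 0.099 (adjusted p = 0.93). Sidestream smoke differed from air by -0.17 ± 0.12 in DIO and -0.31 ± 0.12 in RW (adjusted p = 0.42 and 0.19), the last called without the 5 arrays (-0.31 ± 0.089, adjusted p = 0.033). Blvrb, a biliverdin reductase further along haem breakdown, rose by 0.21 ± 0.067 in DIO-MS against DIO-SC (adjusted p = 0.017), a call lost without the 5 arrays (0.14 ± 0.072, adjusted p = 0.20), and differed by 0.14 in RW-MS against RW-SC.

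**Figure D2:**
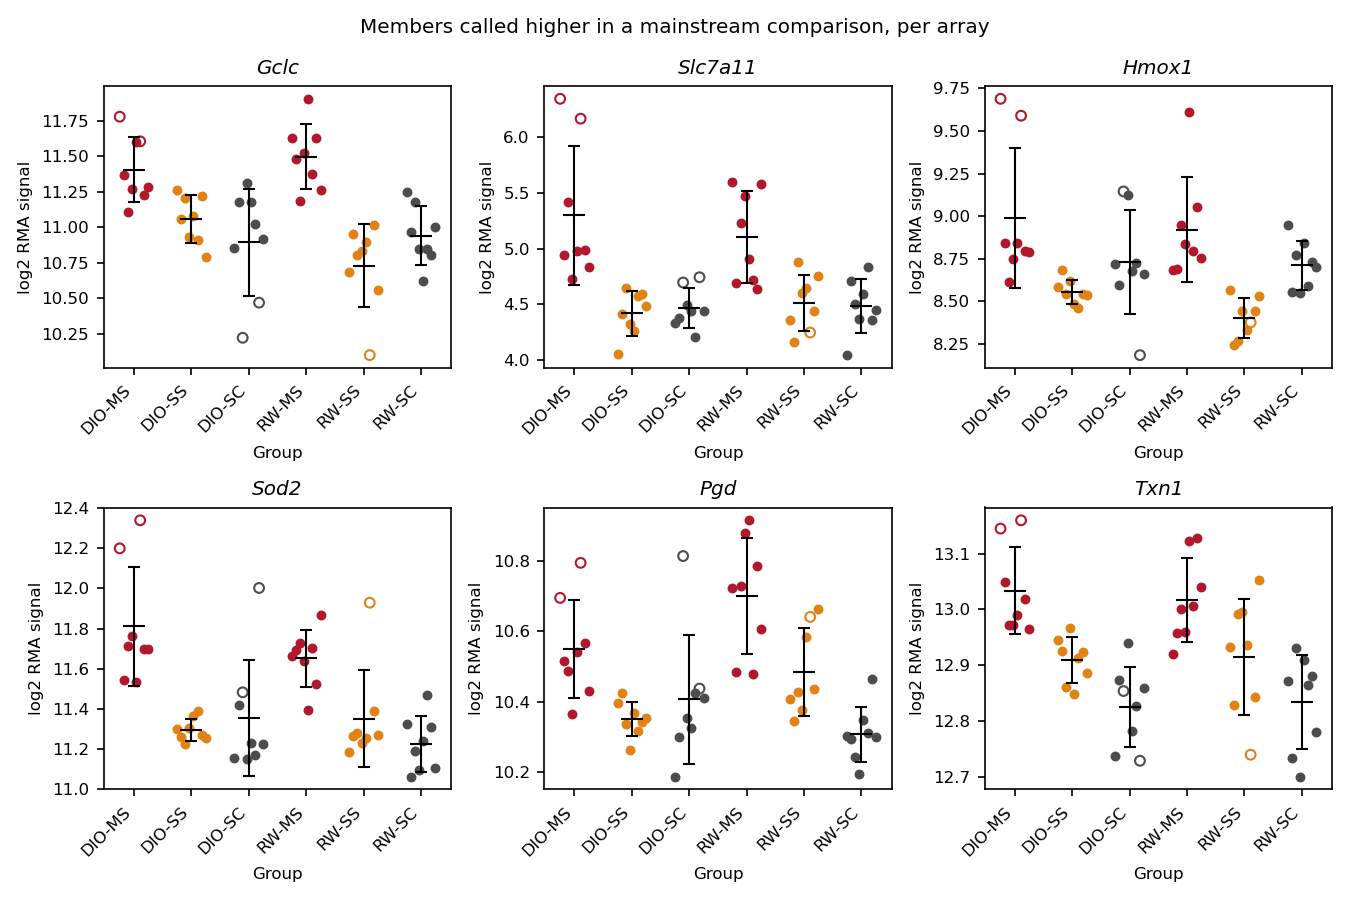
Log2 RMA signal of each array (points) in the 6 groups for Gclc, Slc7a11, Hmox1, Sod2, Pgd and Txn1, with the mean and SD of 8 arrays in black; open points are the 5 arrays that stood apart. The highest array of each panel is a mainstream array, and the 2 open DIO-MS points lie above the other 6 in all 6 panels, for Gclc by the smallest margin (11.61 against 11.60).

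Among the superoxide dismutases, peroxidases and catalase, Sod2, the mitochondrial dismutase, rose. Its signals were 11.53, 11.71 and 12.34 in DIO-MS, 11.23, 11.29 and 11.39 in DIO-SS and 11.15, 11.23 and 12.00 in DIO-SC. The RW signals were 11.39, 11.68 and 11.87 in RW-MS, 11.18, 11.27 and 11.93 in RW-SS and 11.06, 11.22 and 11.47 in RW-SC. All 8 DIO-MS arrays lay above all DIO-SS arrays, and the highest DIO-SC and RW-SS values came from DIO-SC-7 and RW-SS-6. Sod2 rose by 0.46 ± 0.10 in DIO-MS against DIO-SC (1.37-fold, adjusted p = 9.4e-04) and by 0.43 ± 0.10 in RW-MS against RW-SC (1.35-fold, adjusted p = 0.0035). Against sidestream smoke it was higher by 0.52 ± 0.10 in DIO (adjusted p = 3.0e-04) and 0.30 ± 0.10 in RW (adjusted p = 0.057). Without the 5 arrays these 4 differences were 0.43, 0.43, 0.36 and 0.38, all called. A much dimmer Sod2 probe set, 1417194_at, differed from air by 0.27 in DIO-MS and 0.079 in RW-MS. Sod1 and Sod3, the cytosolic and extracellular forms, were called in no comparison.

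Gpx2, a glutathione peroxidase of epithelium, fell by 0.60 ± 0.14 in DIO-MS against DIO-SC (1.51-fold lower, adjusted p = 0.0014). Its signals were 8.90, 9.06 and 9.32 in DIO-MS and 8.75, 9.74 and 10.74 in DIO-SC, and in RW 8.90, 9.23 and 9.52 in RW-MS and 9.24, 9.46 and 9.96 in RW-SC. The lowest and the highest DIO-SC values came from DIO-SC-7 and DIO-SC-3, the other 6 lay at 9.30 to 9.77, and without the arrays apart Gpx2 was lower by a like amount (-0.59 ± 0.11, adjusted p = 1.0e-04). In RW-MS the difference from air was -0.33 ± 0.14 (adjusted p = 0.11, and 0.0093 without the 5 arrays). Gpx3, the secreted form, fell by 0.15 ± 0.052 in DIO-MS (adjusted p = 0.034; difference -0.20 without the 5 arrays) and by 0.17 ± 0.052 in RW-MS (8 of 8 arrays below, adjusted p = 0.024) against air. Gpx1, the common cytosolic form, was lower in DIO-SC than in RW-SC by 0.14 ± 0.046 (adjusted p = 0.041), a call lost without the 5 arrays (-0.099 ± 0.043, adjusted p = 0.15). Gpx4, which reduces lipid peroxides, was lower by 0.17 ± 0.057 in RW-MS against RW-SS (adjusted p = 0.044, and 0.051 without the 5 arrays).

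Cat (catalase) was called between the smokes in the obese animals. Its signals were 10.84, 11.30 and 11.89 in DIO-MS, 11.55, 11.76 and 11.92 in DIO-SS and 11.07, 11.47 and 11.83 in DIO-SC. It was lower by 0.39 ± 0.13 in DIO-MS against DIO-SS (6 of 8 arrays below, adjusted p = 0.026), a call lost without the 5 arrays (-0.27 ± 0.12, adjusted p = 0.18). Against air, sidestream smoke gave Cat differences of 0.29 ± 0.13 in DIO and 0.39 ± 0.13 in RW (adjusted p = 0.16 and 0.090).

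The detoxifying enzymes, with Osgin1, held 5 of the 7 members lower in DIO-MS and 2 of the 4 lower in RW-MS against air, where 9.76% and 8.07% of all genes were called lower. Without the 5 arrays Nqo1 was no longer among them, and Ephx1, Aox1, Cbr3 and Osgin1 were called lower in each diet. In that setting 18% of all genes were called in either direction in DIO-MS and 24.3% in RW-MS, against 21.4% and 14.7% with all arrays. Ephx1 (1422438_at), the microsomal epoxide hydrolase that opens epoxides of tobacco hydrocarbons, had signals of 10.51, 11.53 and 11.60 in DIO-MS, 11.66, 11.72 and 11.84 in DIO-SS and 11.32, 11.94 and 12.06 in DIO-SC. In RW they were 11.36, 11.58 and 11.61 in RW-MS, 11.55, 11.66 and 11.68 in RW-SS and 11.77, 11.99 and 12.03 in RW-SC. In RW all 8 arrays of either smoke lay below all air arrays, and all 8 DIO-MS arrays lay below all DIO-SS arrays. Ephx1 fell by 0.54 ± 0.10 in DIO-MS against DIO-SC (1.46-fold, adjusted p = 1.0e-04) and by 0.45 ± 0.10 in RW-MS against RW-SC (1.36-fold, adjusted p = 0.0025). DIO-MS-1 and DIO-MS-6 had 10.72 and 10.51, while the rest of DIO-MS lay at 11.49 to 11.60. With the 5 arrays left out, Ephx1 differed by -0.43 ± 0.045 in DIO-MS (adjusted p = 5.6e-10) and by -0.45 ± 0.039 in RW-MS (adjusted p = 4.0e-12). Under sidestream smoke Ephx1 differed from air by -0.12 ± 0.10 in DIO and -0.32 ± 0.10 in RW (adjusted p = 0.51 and 0.089); without the 5 arrays both were called, at -0.24 ± 0.042 (adjusted p = 1.1e-04) and -0.31 ± 0.040 (adjusted p = 1.4e-06).

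Aox1 (1419435_at), an aldehyde oxidase, had signals of 8.71, 9.10 and 9.24 in DIO-MS, 9.24, 9.40 and 9.60 in DIO-SS and 9.40, 9.61 and 9.73 in DIO-SC. The RW signals were 8.91, 9.27 and 9.53 in RW-MS, 9.35, 9.49 and 9.62 in RW-SS and 9.28, 9.55 and 9.75 in RW-SC. The DIO-MS arrays lay below all arrays of both other DIO groups, while in RW 4 of 8 lay below all air arrays. Aox1 fell by 0.55 ± 0.075 in DIO-MS against DIO-SC (1.46-fold, adjusted p = 2.1e-07) and by 0.25 ± 0.075 in RW-MS against RW-SC (1.19-fold, adjusted p = 0.019). Without the 5 arrays the difference in DIO was -0.46 ± 0.076 (adjusted p = 8.8e-06). Against sidestream smoke Aox1 was lower in DIO-MS by 0.37 ± 0.075 (adjusted p = 3.6e-04, and 0.0077 without the 5 arrays).

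Cbr3, a carbonyl reductase, fell by 0.30 ± 0.084 in DIO-MS against DIO-SC (adjusted p = 0.0076) and was lower by 0.36 ± 0.084 than in DIO-SS (8 of 8 arrays below, adjusted p = 0.0014); both calls remained when the 5 arrays were left out (-0.23 and -0.27). In RW-MS it differed from air by -0.18 ± 0.084 (adjusted p = 0.15, and 0.016 without the 5 arrays). Osgin1, an oxidative stress induced growth inhibitor, fell by 0.26 ± 0.076 in DIO-MS and by 0.25 ± 0.076 in DIO-SS against DIO-SC (adjusted p = 0.010 and 0.032), with differences of -0.37 and -0.36 when the 5 arrays were left out. In RW-MS it differed from air by -0.21 ± 0.076 (adjusted p = 0.051, and 0.010 without the 5 arrays). Abcc1, an export pump for glutathione conjugates, was called in no comparison.

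Nqo1, the quinone reductase most often used as a readout of NRF2, was not called higher with either smoke. Its signals were 6.66, 7.12 and 7.26 in DIO-MS, 7.07, 7.24 and 7.34 in DIO-SS and 6.86, 7.22 and 8.11 in DIO-SC. In RW they were 6.86, 7.29 and 7.45 in RW-MS, 7.31, 7.51 and 7.92 in RW-SS and 6.99, 7.29 and 7.62 in RW-SC. Each smoke group overlapped its air group. Nqo1 was lower by 0.32 ± 0.12 in DIO-MS against DIO-SC (adjusted p = 0.0496), which rested on the arrays apart: Nqo1 signals were 7.89 in DIO-SC-3 and 8.11 in DIO-SC-7 (6.86 to 7.33 in the rest of DIO-SC), and leaving out the 5 arrays the difference was 0.018 ± 0.093 (adjusted p = 0.93). In RW-MS it differed from air by -0.041 ± 0.12 (95% interval -0.28 to 0.20), and from RW-SS by -0.27 ± 0.12 (adjusted p = 0.16, and 0.010 without the 5 arrays). Under sidestream smoke in RW, Nqo1 differed from air by 0.227, and by 0.25 ± 0.083 without the 5 arrays (adjusted p = 0.0685). In DIO-SS against DIO-SC the difference without those arrays was 0.12 ± 0.0865 (adjusted p = 0.42).

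Markers of other lung cells stood beside these falls as follows. Type 1 alveolar cell markers (6 of 6 measured) scored -0.30 to 0.13 in DIO-MS against -0.59 to 0.24 in DIO-SC, and -0.16 to -0.027 in RW-MS against 0.034 to 0.26 in RW-SC. Of these, 1 was called higher and 2 lower in DIO-MS, and 0 higher and 3 lower in RW-MS, against air. Type 2 alveolar cell markers (8 of 9 measured) scored -0.0865 to 0.206 in DIO-MS against -0.685 to 0.0417 in DIO-SC. In RW-MS they scored -0.00512 to 0.153, against -0.0282 to 0.136 in RW-SC. Among the type 2 markers, 5 were called higher and 0 lower in DIO-MS against air (21.4% of all genes called). In RW-MS 1 was called higher and 2 lower (14.7%). Club cell markers (5 of 5 measured) scored -0.45 to 0.26 in DIO-MS against -0.68 to 0.31 in DIO-SC, and -0.25 to 0.25 in RW-MS against -0.60 to 0.25 in RW-SC. Although these club cell scores overlapped, Cyp2f2 and Cbr2 were called lower in both diets, by 0.29 and 0.19 in DIO-MS and by 0.20 and 0.17 in RW-MS against air, and Scgb3a1, which was not called, differed by 0.75 and 1.32. In DIO-MS against DIO-SS 3 of the 5 club cell markers were called lower. Of 3 ciliated cell markers measured, Tppp3 was called lower in both diets, by 0.37 in DIO-MS and 0.33 in RW-MS against air. Of 6 endothelial markers, Pecam1 and Cdh5 were called lower in RW-MS against RW-SC, by 0.43 and 0.33, and 0 in DIO-MS against DIO-SC (2 at an unadjusted p below 0.05). B cell markers (3 of 4 measured) scored -0.68 to 0.032 in DIO-MS against -0.72 to 0.044 in DIO-SC, and -0.63 to 0.35 in RW-MS against 0.45 to 1.15 in RW-SC. The type 1 and B cell scores in RW did not overlap between the groups. The part of all these markers in the member differences was not tested.

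**Figure D3:**
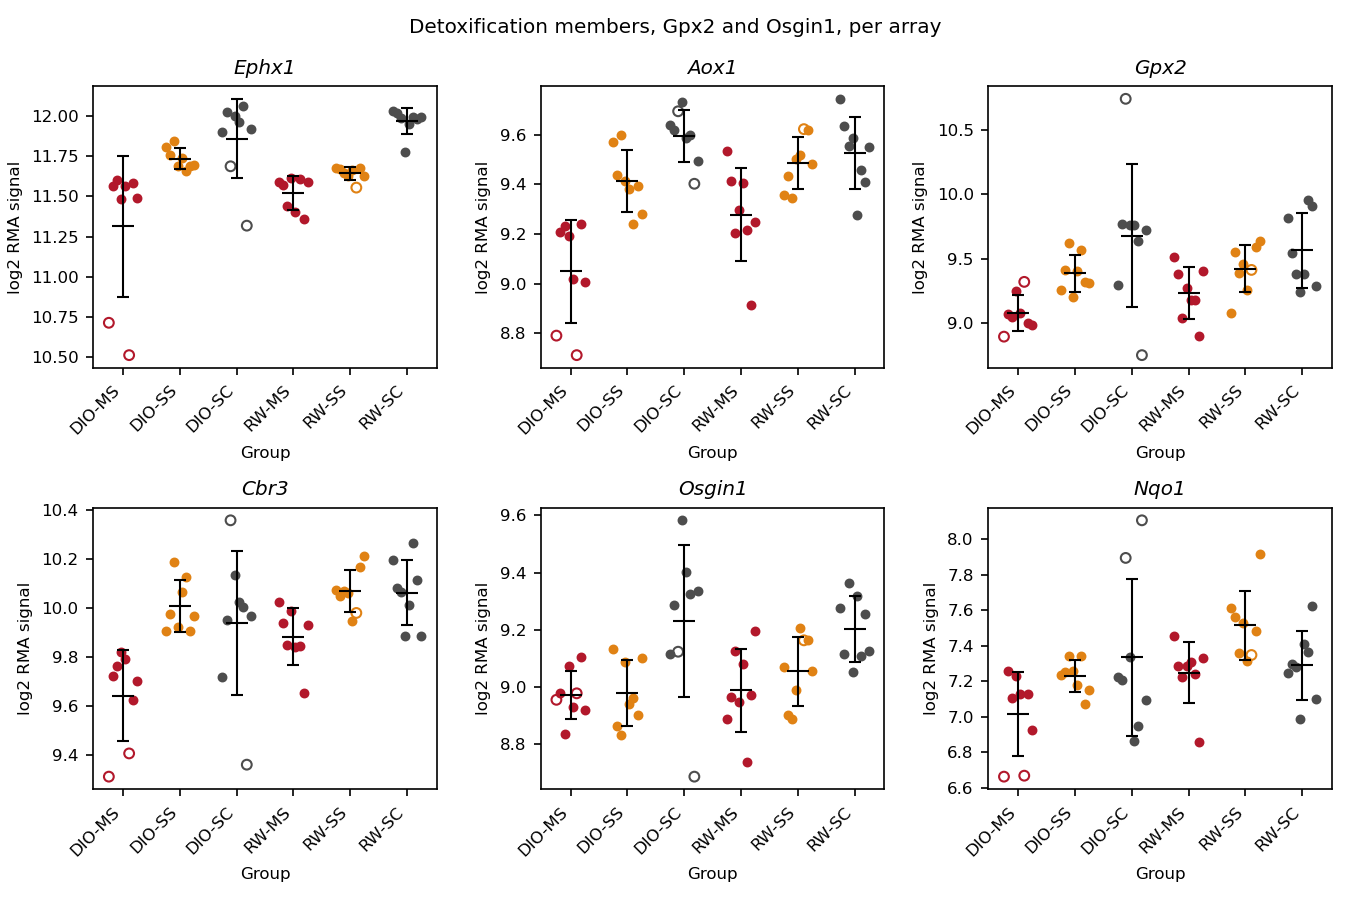
Log2 RMA signal of each array (points) in the 6 groups for Ephx1, Aox1, Gpx2, Cbr3, Osgin1 and Nqo1, with the mean and SD of 8 arrays in black; open points are the 5 arrays that stood apart. Aox1 is lowest in DIO-MS with no overlap with DIO-SC, and the 2 open DIO-SC points of Nqo1, at 7.89 and 8.11, lie above the rest of that group.

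Whether diet altered the response to smoke was tested directly, as the DIO difference minus the RW difference. For mainstream smoke limma called 0 of the 34 members (3 at an unadjusted p below 0.05) against 0.888% of all genes, with a median of -0.047 (all genes 0.018). For sidestream smoke it called 0 (5 at an unadjusted p below 0.05) against 0.654%, with a median of -0.035 (all genes 0.031); without the 5 arrays both counts were also 0 (3 and 2; 1.06% and 1.25% of all genes called). Aox1 had the lowest adjusted p for mainstream smoke, with a difference between the diets of -0.30 (95% interval -0.51 to -0.083, adjusted p = 0.17, and -0.21 without the 5 arrays). Pgd had -0.25 (-0.44 to -0.062, adjusted p = 0.19) and -0.24 without them, its difference from air being 0.14 in DIO and 0.39 in RW; the probe set 1423706_a_at of Pgd had 0.0078. For Gclc the interval ran from -0.41 to 0.31, for Slc7a11 from -0.28 to 0.70, for Hmox1 from -0.31 to 0.40, for Sod2 from -0.27 to 0.33 and for Ephx1 from -0.40 to 0.20, so differences of those sizes stay within the intervals. Without the 5 arrays the estimate for Gclc was -0.33 ± 0.14 (adjusted p = 0.31), against -0.046 ± 0.18 with them. For sidestream smoke Gclm had the lowest adjusted p, with 0.29 (0.064 to 0.52, adjusted p = 0.26), and 0.16 without the 5 arrays. Under sidestream smoke Nqo1 was lower in DIO-SS than in RW-SS by 0.29 ± 0.12 (adjusted p = 0.35), a difference called without the 5 arrays (-0.31 ± 0.083, adjusted p = 0.030).

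**Figure D4:**
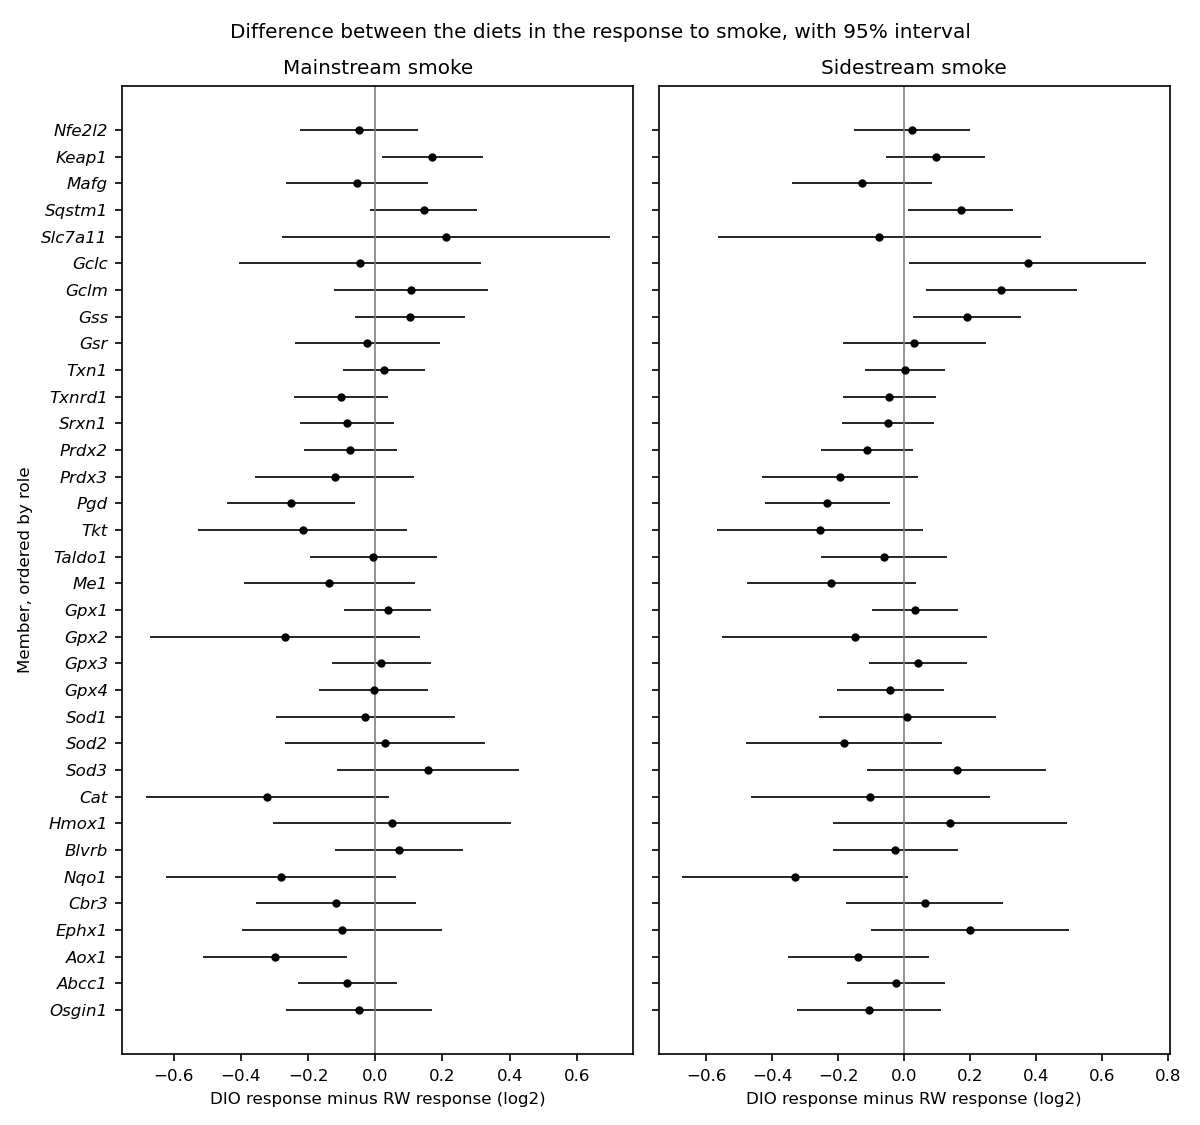
How the response of DIO animals differed from that of RW animals, for mainstream (left) and sidestream smoke (right), as the log2 difference from air in DIO minus that in RW, with 95% intervals, for the 34 measured members in rows ordered by role. Most intervals include 0, and no member passed the adjusted test for either smoke.

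Over all 11 contrasts 19 members were called at least once and 15 never: Gclm, Txnrd1, Srxn1, Gsr, Tkt, Taldo1, Me1, Abcc1, Prdx2, Prdx3, Sod1, Sod3, Nfe2l2, Keap1 and Mafg. The largest difference among those 15, in any contrast, was 0.29 in size. How many of all genes were called at least once was not counted, so these counts are not read as particular to the members. The spread within groups set what could be seen: the median SD over members was 0.14 in DIO-MS, 0.078 in DIO-SS and 0.19 in DIO-SC, and 0.12 in RW-MS, 0.11 in RW-SS and 0.13 in RW-SC. DIO-SC-7 alone was the highest or lowest array of its group for 23 of the 34 members.

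Further genes of the pathway, from lists that hold none of the members, were tested in the same fit. The lists were chosen with earlier results of these data known, so their shares describe the lists, and no excess over all genes is read from them. Of 22 other genes of detoxification and iron handling, 10 were called in DIO-MS against DIO-SC (4 higher, 6 lower) and 8 in RW-MS against RW-SC (5 higher, 3 lower), 45.5% and 36.4% against 21.4% and 14.7% of all genes. These counts without the 5 arrays were 4 higher and 5 lower in DIO and 5 and 5 in RW. The aldo-keto reductase Akr1b8 rose by 0.69 ± 0.098 in DIO (0.43 without the 5 arrays) and by 0.65 ± 0.098 in RW. Fth1, the ferritin heavy chain that stores iron, rose by 0.19 ± 0.030 in DIO (0.14 without the 5 arrays) and by 0.099 ± 0.030 in RW. The glutathione transferase Gstm2 fell by 0.33 ± 0.092 in DIO and by 0.42 ± 0.092 in RW. Its relative Gstm1 fell by 0.46 ± 0.10 in DIO and differed by -0.27 ± 0.10 in RW (adjusted p = 0.067, and 5.8e-06 without the 5 arrays).

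Of 18 other thiol and peroxide genes, 7 were called in DIO-MS against DIO-SC (3 higher, 4 lower) and 1 in RW-MS against RW-SC, 38.9% and 5.56% against 21.4% and 14.7% of all genes. Without the 5 arrays these counts were 4 higher and 2 lower in DIO and 2 and 2 in RW (18% and 24.3% of all genes called). Msrb1, a methionine sulfoxide reductase, rose by 0.40 ± 0.068 in DIO (0.25 without the 5 arrays) and by 0.24 ± 0.068 in RW. Of 9 other glutathione and cystine genes, 2 were called higher and 2 lower in DIO-MS, and 0 higher and 2 lower in RW-MS (44.4% and 22.2%, against the same shares of all genes), or 0 and 3 in DIO and 2 and 2 in RW without the 5 arrays. Chac1, which degrades glutathione, fell by 0.30 ± 0.094 in DIO and by 0.50 ± 0.094 in RW. Of 5 partners of NRF2, limma called 0 against air with either diet (0 in DIO-MS and 3 in RW-MS at an unadjusted p below 0.05), or 1 higher and 1 lower in RW-MS without the 5 arrays. Maff, a small MAF, was higher by 0.34 ± 0.10 in DIO-MS against DIO-SS and by 0.31 ± 0.10 in DIO-SC against RW-SC, both also called without the 5 arrays (0.29 and 0.41).

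Of 10 measured genes that make oxidants, 4 were called higher and 1 lower in DIO-MS against DIO-SC, and 2 higher and 1 lower in RW-MS against RW-SC (50% and 30%, against 21.4% and 14.7% of all genes), or 4 and 1 in DIO and 3 and 1 in RW without the 5 arrays. Cyba, a membrane subunit of the phagocyte NADPH oxidase, rose by 0.86 ± 0.072 in DIO (0.70 without the 5 arrays) and by 0.53 ± 0.072 in RW. Ncf4, a cytosolic subunit, rose by 0.97 ± 0.12 in DIO (0.67 without the 5 arrays) and by 0.42 ± 0.12 in RW. Cybb and Ncf1, a further pair of subunits, rose by 1.04 ± 0.17 and 0.95 ± 0.13 in DIO (0.60 and 0.67 without the 5 arrays). The 2 called higher in RW-MS were Cyba and Ncf4, so Cybb and Ncf1 were not called higher there. Tested directly, the diet by mainstream interaction called 0 of the 10 (4 at an unadjusted p below 0.05) against 0.888% of all genes. Nox4, an oxidase of structural cells, fell by 0.30 ± 0.11 in DIO and by 0.30 ± 0.11 in RW. In air, Cybb, Ncf1, Ncf4 and Cyba were lower in DIO-SC than in RW-SC, by 0.67 ± 0.17, 0.59 ± 0.13, 0.49 ± 0.12 and 0.34 ± 0.072, and all 4 were also called without the 5 arrays. B cell markers scored -0.72 to 0.044 in DIO-SC against 0.45 to 1.15 in RW-SC, and neutrophil markers (9 of 10 measured) -0.55 to 0.28 in DIO-SC against -0.37 to 0.54 in RW-SC. Their part in that difference was not tested.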

How the data were processed

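RNA of 48 mouse lungs was measured on Affymetrix arrays, 1 per animal. Per the submitters' processing notes the authors used RMA. The RMA version is not stated in those notes, nor is a joint normalization of the arrays. What the authors deposited are log2 signals. Values ran from 2.497 to 15.27, with array medians of 7.82 to 7.939. Of 22690 probe sets, 64 were controls, 20380 had 1 symbol and 691 several; symbols came from GEO's platform annotation, updated through its Entrez IDs to RefSeq, and 1 probe set per gene (highest mean) gave 12393 genes. Each gene was fitted with limma 3.58.1 (lmFit and eBayes, R 4.3.3) over 6 groups of 8, with 42 residual degrees of freedom, no covariate, 11 contrasts and Benjamini-Hochberg adjustment within each contrast. The number of arrays limits the precision. Data were simulated with the mean and pooled spread of each gene, independent normal noise and changes in RW-MS alone. There, 91% of log2 changes of 0.5 and 97% of changes of 1 were recovered, and 6.47% of calls were unchanged genes. The simulation held no changes below 0.5, no arrays that stood apart and no spreads that differed between groups. Its shares therefore do not carry over to smaller differences or to comparisons with such arrays. The members and lists were chosen with earlier results of these data known. Members described in full were those called with a difference of at least 0.5 in size, together with Nfe2l2, Keap1, Nqo1 and Hmox1; other members called were named with fewer values. The alternatives were centring, other choices of probe set, a filter on dim genes, a trended and robust fit, the replicate number as a block, leaving out the 5 arrays, and fits of the compared groups alone.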

Additional observations from a re-analysis of the deposited data

Results flagged for a closer look

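Among 60 sets of 8 arrays (10 members in 6 groups), 9 held an array whose gap to the next exceeded Dixon's 95% critical value for the range of the set, and chance gives about 1 in 20. Of these arrays, 4 belonged to the 5 that stood apart. Sod2 was 12.00 in DIO-SC-7 (next highest 11.48) and 11.93 in RW-SS-6 (11.39), Nfe2l2 was 11.07 in DIO-SC-7 (next lowest 11.49), and Ephx1 was 11.55 in RW-SS-6 (11.63). The other 5 were in arrays not otherwise apart. Ephx1 was 11.77 in RW-SC-4 (next lowest 11.95), Nfe2l2 was 11.24 in RW-SC-6 (11.39), and Nqo1 was 6.86 in RW-MS-7 (7.23). Hmox1 was 9.61 in RW-MS-5 (next highest 9.05), and Keap1 was 9.60 in DIO-SS-7 (9.48).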

How the results depend on the processing

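Of 99 member counts under the 9 alternatives, 79 stayed within 1.5 times the reported count and 20 did not. The 79 include counts of 0 that stayed 0, in comparisons where no member was called. A kept count can also hold other members. In DIO-SC against RW-SC without the 5 arrays, Nfe2l2, Gpx3 and Tkt were called in place of Sqstm1 and Gpx1. Of 359 single values of members called, 311 kept direction and call, 43 lost the call and 5 turned sign. Without the 5 arrays that stood apart the counts were 1 in DIO-MS against RW-MS, 1 in DIO-SS against RW-SS, 16 in RW-MS against RW-SC, 3 in RW-SS against RW-SC, 4 in DIO-SS against DIO-SC, 10 in RW-MS against RW-SS and 7 in DIO-MS against DIO-SS. With only the compared groups in the fit they were 0 in DIO-SC against RW-SC, 1 in DIO-SS against RW-SS, 6 in DIO-MS against DIO-SC, 3 in RW-SS against RW-SC, 0 in DIO-SS against DIO-SC and 8 in RW-MS against RW-SS. DIO-SC against RW-SC had 1 with centring, with the most variable probe set, without shared (_s, _x and _a) probe sets and with the replicate block. RW-SS against RW-SC had 1 with the mean of probe sets, and RW-MS against RW-SS had 3 without shared probe sets (28 members tested). The most variable probe set of Txn1 gave -0.16 in RW-MS and -0.0012 in DIO-MS against air and -0.15 in DIO-MS against DIO-SS, where the mean of its probe sets gave -0.011. Nqo1 in DIO-MS against DIO-SC was 0.018 without the 5 arrays. The cause was not tested beyond the choice of arrays or probe sets that each alternative makes.

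Same-numbered animals showed little shared deviation, with a median r of 0.036 over 120 pairs (-0.39 to 0.48), against -0.0082 over 840 others. Of 48 arrays, 6 correlated best with their own number. The animals were not treated as paired, and whether the numbers stand for a shared batch cannot be told from these values. With the replicate block 1 member was called in DIO-SS against DIO-SC, and the calls lost were Gpx1 in DIO-SC against RW-SC, Gpx3 and Nqo1 in DIO-MS against DIO-SC, Gss in DIO-SS against DIO-SC, Gpx4 in RW-MS against RW-SS and Txn1 in DIO-MS against DIO-SS.

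Over all genes, leaving out the 5 arrays gave 3015 calls against 1819 in RW-MS against RW-SC, 2116 against 1211 in RW-MS against RW-SS, 581 against 269 in RW-SS against RW-SC, 371 against 121 in DIO-SS against RW-SS and 155 against 81 for diet by sidestream smoke. Fits of the compared groups alone gave 1178 against 2658 in DIO-MS against DIO-SC, 312 against 1026 in DIO-SC against RW-SC, 380 against 849 in DIO-SS against DIO-SC, 47 against 150 in DIO-MS against RW-MS, 415 against 121 in DIO-SS against RW-SS and 35 against 110 for diet by mainstream smoke. Centring moved the share of calls that were higher to 55.8% against 45% in RW-MS against RW-SC, 51.8% against 32% in RW-SS against RW-SC, 35.6% against 50.7% in DIO-MS against RW-MS and 50% against 66.4% for diet by mainstream smoke. No member call turned direction with centring. Slc7a11 was left out by the filter on dim genes. Protein, NRF2 activity and cell numbers were not measured.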
